A study of Mus musculus with 6 samples.

Results

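The genes described here encode the catalytic and regulatory subunits of the PPP family of protein phosphatases, measured in the lumbar cord of mice deficient in Egr3 and of wild-type mice. They were chosen by name: every probe set, on either of the 2 array types used, whose platform annotation gave 1 gene symbol that begins with Ppp, a digit from 1 to 6, and c or r. The rule found 100 of 22690 probe sets on the first array type (A) and 72 of 22575 on the second (B), 172 in all. They stand for 79 genes, 54 on A, 38 on B and 13 on both. A further 5 probe sets that matched the pattern but carried several symbols were left out. The RNA was total RNA pooled from 3 cords per pool, segments L3 to L5, at postnatal day 27. There were 2 Egr3-deficient pools, pool 1 (RNA 450) and pool 2 (RNA 500), and 1 wild-type pool (RNA 499). The labels of pool 2 and of the wild-type pool add a remark on acclimatization that those of pool 1 lack. The sources used here name no strain, sex or Egr3 allele. Each pool was hybridised once to A and once to B as a separate labelled extract, so each comparison set 2 pools against 1.

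PPP phosphatases remove phosphate from serine and threonine. A small number of catalytic subunits is shared among many regulatory partners, and the partner decides where the enzyme acts and on what. Protein phosphatase 1 (PP1) joins targeting and inhibitory subunits that compete for it. PP2A is built from a catalytic subunit, a scaffold and 1 of several classes of B subunit. PP2B, or calcineurin, pairs a catalytic A subunit with a calcium-binding B subunit, is abundant in neurons, and dephosphorylates the NFAT transcription factors when calcium rises. Egr3 is a zinc finger transcription factor that binds GC-rich EGR sites, and muscle spindles fail to form when it is missing.

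Promoter sequences are shown because Egr3 is a DNA-binding factor. RefSeq's promoter table (mouse build GRCm38.p6) held 73 promoters for 60 of the 79 genes, each of 300 bases with 250 before the start. Both strands were searched for 3 words. The EGR words GCGTGGGCG or GCGGGGGCG stood in 8 of the 73 promoters (11%), against 3.47% of all 32851 promoters in the table. The cAMP response element TGACGTCA stood in 5 (6.85% against 1.79%) and the GC box GGGCGG in 49 (67.1% against 35.7%). A GC box can overlap an EGR word, so these counts share sites. The overlapping promoters of Ppp1r18 hold the same EGR word, and those of Ppp2r2d the same cAMP response element, so these sites were counted more than once. By gene, 7 of the 60 had an EGR word and 4 the cAMP response element. Genes with an EGR word were Ppp1r12a, Ppp1r18, Ppp1r3f, Ppp3cb, Ppp4r4, Ppp5c and Ppp6r2, and those with the cAMP response element were Ppp1r12c, Ppp1r15a, Ppp2ca and Ppp2r2d. A match of letters is a description and shows no binding. The 250 bases before the start of 4 genes whose values are given further on, chosen after the values were seen, follow from 5′ to 3′ on the gene's strand, with the cAMP response element of Ppp1r12c and the EGR word of the other 3 in capitals.
Ppp1r12c, chr7:4501681-4501930, strand -: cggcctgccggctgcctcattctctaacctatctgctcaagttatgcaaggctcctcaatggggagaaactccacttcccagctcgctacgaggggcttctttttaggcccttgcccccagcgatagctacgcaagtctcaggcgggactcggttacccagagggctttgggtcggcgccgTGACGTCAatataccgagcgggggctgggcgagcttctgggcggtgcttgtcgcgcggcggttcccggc
Ppp3cb, chr14:20546574-20546823, strand -: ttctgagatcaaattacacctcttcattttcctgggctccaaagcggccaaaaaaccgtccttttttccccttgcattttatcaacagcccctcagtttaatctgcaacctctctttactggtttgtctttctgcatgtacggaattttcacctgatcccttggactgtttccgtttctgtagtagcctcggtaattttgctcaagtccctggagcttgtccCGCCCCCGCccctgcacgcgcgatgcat
Ppp1r12a, chr10:108161848-108162097, strand +: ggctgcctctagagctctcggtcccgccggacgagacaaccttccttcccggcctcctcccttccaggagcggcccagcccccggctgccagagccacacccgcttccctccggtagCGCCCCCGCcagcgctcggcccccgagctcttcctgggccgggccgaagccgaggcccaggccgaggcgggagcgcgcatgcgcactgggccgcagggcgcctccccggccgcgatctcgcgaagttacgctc
Ppp5c, chr7:17027915-17028164, strand -: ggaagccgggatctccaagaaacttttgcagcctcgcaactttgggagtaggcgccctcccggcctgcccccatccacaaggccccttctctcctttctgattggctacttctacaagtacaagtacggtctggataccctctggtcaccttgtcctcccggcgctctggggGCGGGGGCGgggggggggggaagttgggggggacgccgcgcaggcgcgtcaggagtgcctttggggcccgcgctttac
The capitals begin 69 bases before the start in Ppp1r12c, 28 in Ppp3cb, 133 in Ppp1r12a and 78 in Ppp5c. The word of Ppp3cb and Ppp1r12a lies on the opposite strand and is therefore printed as its reverse complement.

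The deposited values are linear probe set intensities with a median between 50.3 and 91.8 per array. Intensities below are as deposited. Differences are the mean of both Egr3-deficient pools minus wild type, in log2(intensity + 16) after quantile normalization, a scale that understates changes of dim probe sets. The Egr3 probe sets were not lower in both Egr3-deficient pools: they read 24.9, 52.7 and 40.6 on A and 210, 107 and 75.3 on B, in pool 1, pool 2 and wild type, so these readings do not separate the genotype labels. The ratio of the 3′ to the 5′ control probe set for 18S RNA was 2.27, 1.08 and 0.0493 in the same order on A. On B it came to 1.43, 0.945 and 0.0605. The messenger RNA controls differed much less among the pools. Gapdh had ratios of 0.858, 0.975 and 0.734 (A) and 0.923, 0.805 and 0.755 (B). Those of beta-actin were 1.37, 1.48 and 1.36 (A) and 1.4, 1.47 and 1.52 (B). Skeletal muscle markers lay above wild type in both pools in 21 of 21 probe sets on A, with summed intensities of 6580, 8010 and 1210 (lowest wild-type reading 1.33). Liver markers did so in 14 of 17, with sums of 761, 15800 and 242 (lowest wild-type reading 0.627). Spinal neuron markers lay below in 13 of 18, with sums of 12800, 14600 and 19400. The part of these in the results below was not tested, and in pooled tissue fewer cells of a type and less RNA per cell cannot be told apart.

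Among the phosphatase subunits, 2 PP1 targeting subunits of the myosin phosphatase family passed the test, Ppp1r16a and Ppp1r12c, both higher in the Egr3-deficient pools on B. Ppp1r16a met the brightness filter through those pools only, and without the filter neither was called. No member passed on A, where calcineurin subunits lay lower and several PP1 inhibitors, Ppp5c and Ppp4c lay higher in both pools without passing. On A, 80 of the 100 probe sets were bright enough to be tested. Of these, 0 were called higher and 0 lower at a limma adjusted p under 0.05, where 0.0663% of all tested probe sets were called higher and 0% lower. At an unadjusted p under 0.05, 7 were higher (8.75%, background 7.93%) and 13 lower (16.2%, background 12.7%). Over all 100, 37 lay above wild type in both pools (background 42.7%) and 44 below (background 35.5%). A ratio of at least 2-fold in both pools was seen above wild type for 2 (2%, background 1.14%) and below for 2 (2%, background 3.38%).

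On B, 54 of the 72 probe sets were tested. Of these, 2 were called higher (3.7%) and 0 lower, where 1.02% of all tested probe sets were called higher and 0.607% lower. At an unadjusted p under 0.05, 2 were higher (3.7%, background 7.4%) and 6 lower (11.1%, background 6.83%). Over all 72, 27 lay above wild type in both pools (37.5%, background 37.8%) and 24 below (33.3%, background 35%). At least 2-fold in both pools were 3 above (4.17%, background 4.47%) and 2 below (2.78%, background 3.55%). The shares of members on either side of wild type on B lay close to those of all probe sets, so these counts are no result about the family. Scaling each array by the 100 probe sets that A and B share turned the split on B to 8 above and 52 below, and moved the median of all probe sets there to -0.67.

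**Figure D1:**
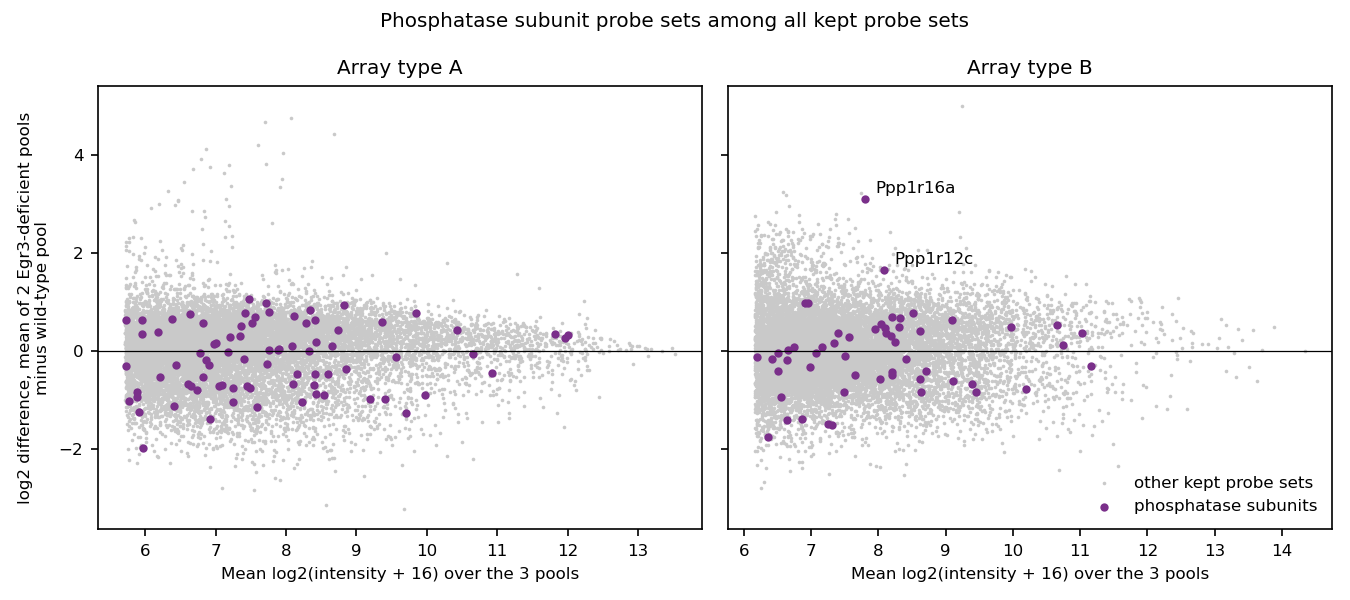
The horizontal axis is the mean log2(intensity + 16) over the 3 pools and the vertical axis the log2 difference, mean of 2 Egr3-deficient pools minus wild type. Grey points are the other kept probe sets and purple points the kept phosphatase subunit probe sets, 80 on A and 54 on B. Ppp1r16a (3.10) and Ppp1r12c (1.64) are the named points on B, and the remaining purple points lie within the grey cloud.

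The median member difference was -0.05 on A (all probe sets 0.05) and 0.05 on B (all probe sets 0.02). Members ranged from -1.98 to 1.24 on A and from -1.76 to 3.10 on B. Where both pools lay on the same side of wild type, pool 1 lay farther out in 58 of 81 member probe sets on A (71.6%, all probe sets 64.2%) and in 39 of 51 on B (76.5%, all probe sets 63.9%). Of the 42 genes with 2 or more probe sets, 8 had every probe set above wild type in both pools, 11 had every one below, and 6 had tested probe sets on opposite sides.

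**Figure D2:**
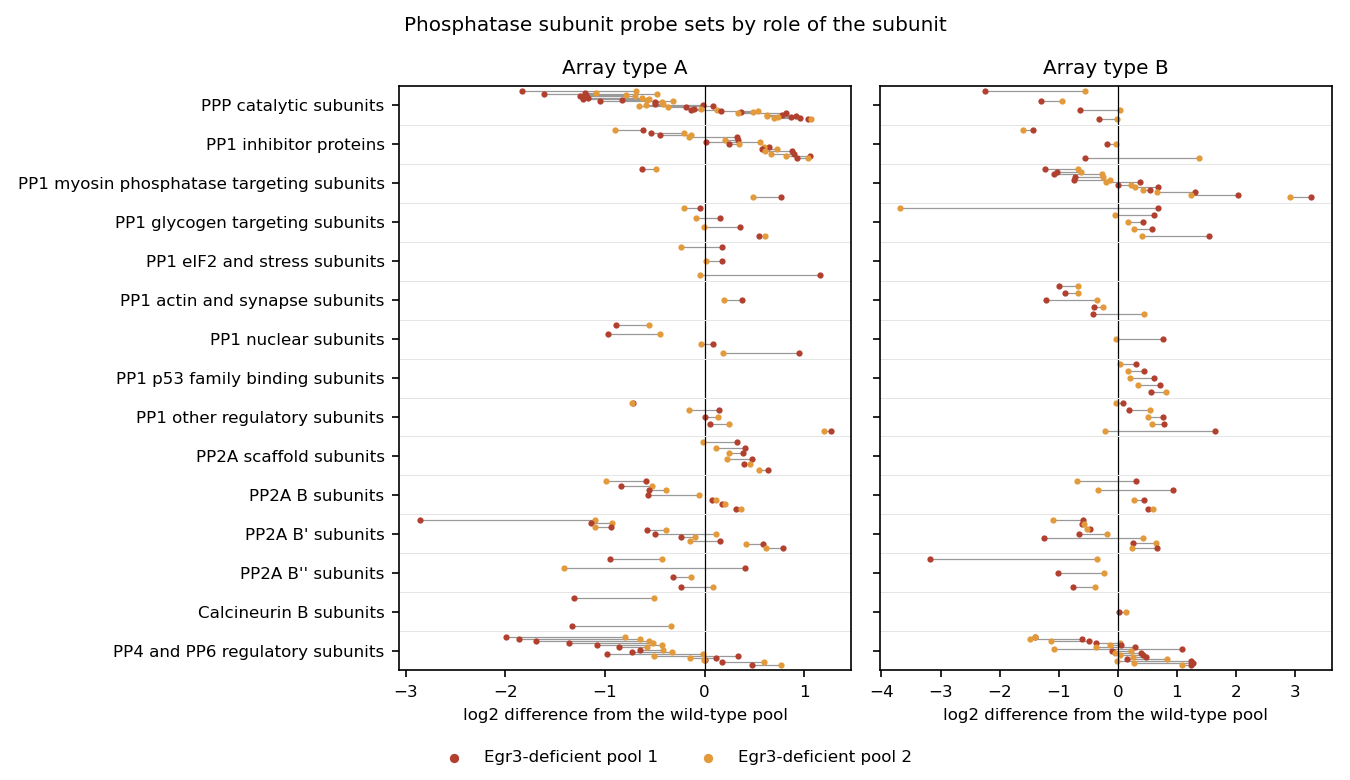
Each row of points is 1 probe set with a role assigned, grouped by the role of its subunit, and the horizontal axis is the log2 difference of each Egr3-deficient pool from the wild-type pool. Red is pool 1, orange is pool 2, and a grey line joins them. On A the calcineurin B and most PP4 and PP6 regulatory points lie left of 0, and the PP2A scaffold points at or right of it.

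The catalytic subunits went different ways, and none passed the test. On A, 8 of their 24 probe sets were above wild type in each pool and 14 below, and 4 were higher and 6 lower at an unadjusted p under 0.05. The 3 PP1 catalytic genes differed among themselves. Ppp1ca, the alpha isoform, had intensities of 1284 in pool 1, 971 in pool 2 and 621 in the wild-type pool, which gave a log2 difference of 0.78 (SE 0.26, limma adjusted p = 0.187). Ppp1cb, the beta isoform that the myosin phosphatase contains, read 458 and 602 against 1012, a difference of -0.99 (SE 0.29, adjusted p = 0.167). Wild type was thus the lowest pool for the alpha isoform and the highest for the beta isoform. A second bright Ppp1cb probe set gave -0.97, and the other 2 gave -0.68 and -0.29, the last with its pools on either side of wild type after normalization, although wild type was its highest deposited reading. Ppp1cc, the gamma isoform, read 1649 and 1602 against 1531, which quantile normalization turned to -0.07, so its direction is not settled, and its other probe set gave 0.57.

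For PP2A, Ppp2ca encodes the alpha and Ppp2cb the beta catalytic subunit. Ppp2ca read 1830 and 1776 against 2178 in wild type on A, a log2 difference of -0.46 (SE 0.21, limma adjusted p = 0.257), and -0.47 at its other probe set on A. On B it read 26.3 and 134 against 213, a difference of -1.40 (SE 0.58, adjusted p = 0.231), with the pools far apart. All 3 Ppp2ca probe sets thus lay below wild type in both pools. The tested Ppp2cb probe set read 438 and 467 against 335, a difference of 0.43 (SE 0.29, adjusted p = 0.409).

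Ppp4c, the PP4 catalytic subunit, read 253 and 232 against 140, a log2 difference of 0.80 (SE 0.31, limma adjusted p = 0.217). Ppp5c, a phosphatase with its own regulatory domain of tetratricopeptide repeats, read 203 and 214 against 98.8 at 1 probe set, a difference of 1.05 (SE 0.32, adjusted p = 0.170). Its other probe sets gave 0.83 and 0.70, so that all 3 had wild type as the lowest pool. Ppp6c, the PP6 catalytic subunit, read 191 and 171 against 231 at its brightest probe set, a difference of -0.28 (SE 0.32, adjusted p = 0.626), and its other probe set gave -1.05 (SE 0.48, adjusted p = 0.262).

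**Figure D3:**
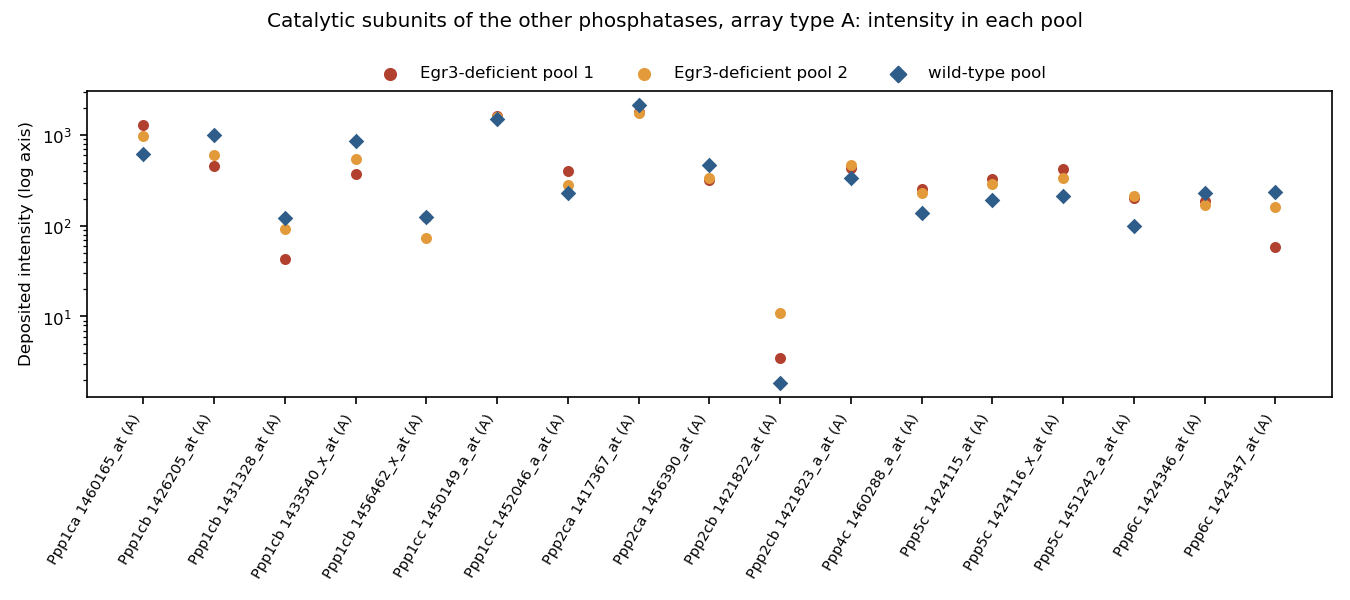
Deposited intensity on a log axis for each probe set of the PP1, PP2A, PP4, PP5 and PP6 catalytic genes on A. Circles are Egr3-deficient pool 1 (red) and pool 2 (orange), and the blue diamond is the wild-type pool. The diamond lies under both circles for Ppp1ca, Ppp4c and all 3 Ppp5c probe sets, and over both for the Ppp2ca and Ppp1cb probe sets.

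Calcineurin subunits lay lower in the Egr3-deficient pools on A: 8 of the 9 probe sets of Ppp3ca, Ppp3cb, Ppp3cc and Ppp3r1 were below wild type in both pools, with a median log2 difference of -0.89. That count stayed at 8 under no normalization, median centring, shared scaling and both other pseudocounts. None passed the test, and 5 had an unadjusted p under 0.05. Ppp3ca, the alpha catalytic subunit, read 406 and 901 against 1364 at its brightest probe set, a difference of -1.26 (SE 0.44, limma adjusted p = 0.191). Its other probe sets gave -0.89 and -0.90. Pool 1 lay below pool 2, and pool 2 below wild type, at all 3. Ppp3cb, the beta catalytic subunit, read 120 and 138 against 314 at 1 probe set, a difference of -1.15 (SE 0.32, adjusted p = 0.161), and 245 and 297 against 453 at the other, a difference of -0.70 (SE 0.31, adjusted p = 0.245). Here the 2 Egr3-deficient pools were close together and apart from wild type. Ppp3r1, the calcium-binding B subunit, read 617 and 1044 against 1405, a difference of -0.91 (SE 0.35, adjusted p = 0.211), and gave -0.84 at a dimmer probe set.

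The B array did not repeat this for its brightest Ppp3cb probe set, which read 1959 and 2624 against 2168, a log2 difference of -0.30 (SE 0.35, limma adjusted p = 0.770) that turned to 0.06 without normalization and to 0.23 under median centring, and was -0.52 under shared scaling. A second tested Ppp3cb probe set on B gave -0.17 (SE 0.70, adjusted p = 0.955). The last, too dim to be tested, read 3.57 and 9.46 against 38.3 (-1.12). All 3 lay below wild type on the mean of the pools, and shared scaling put all 4 calcineurin probe sets on B below it in both pools. Both Ppp3cc probe sets (gamma catalytic subunit) and the Ppp3r2 probe set were too dim to be tested. The brighter Ppp3cc probe set read 34.1 and 22.1 against 42.0, and Ppp3r2 5.24 and 7.50 against 6.14. All 7 probe sets of Ppp3ca, Ppp3cb and Ppp3r1 on A had wild type as the highest pool and pool 1 as the lowest. The marker sums for spinal neurons on A had the same order (12800, 14600 and 19400 in pool 1, pool 2 and wild type). So did those for oligodendrocytes on A (74000, 95700 and 110000). The median deposited intensity over all probe sets also had this order, on A (50.3, 57.9 and 60.1) and on B (76.2, 83.8 and 91.8). Neither marker sum had it on B, where the neuron sums were 22200, 22300 and 18400. Oligodendrocyte sums there were 15600, 12900 and 13400. After normalization, the median log2 difference of the 18 oligodendrocyte probe sets on A was -0.03. Of these, 8 lay lower than wild type in each pool and 5 higher. The part of either cell type was not tested.

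**Figure D4:**
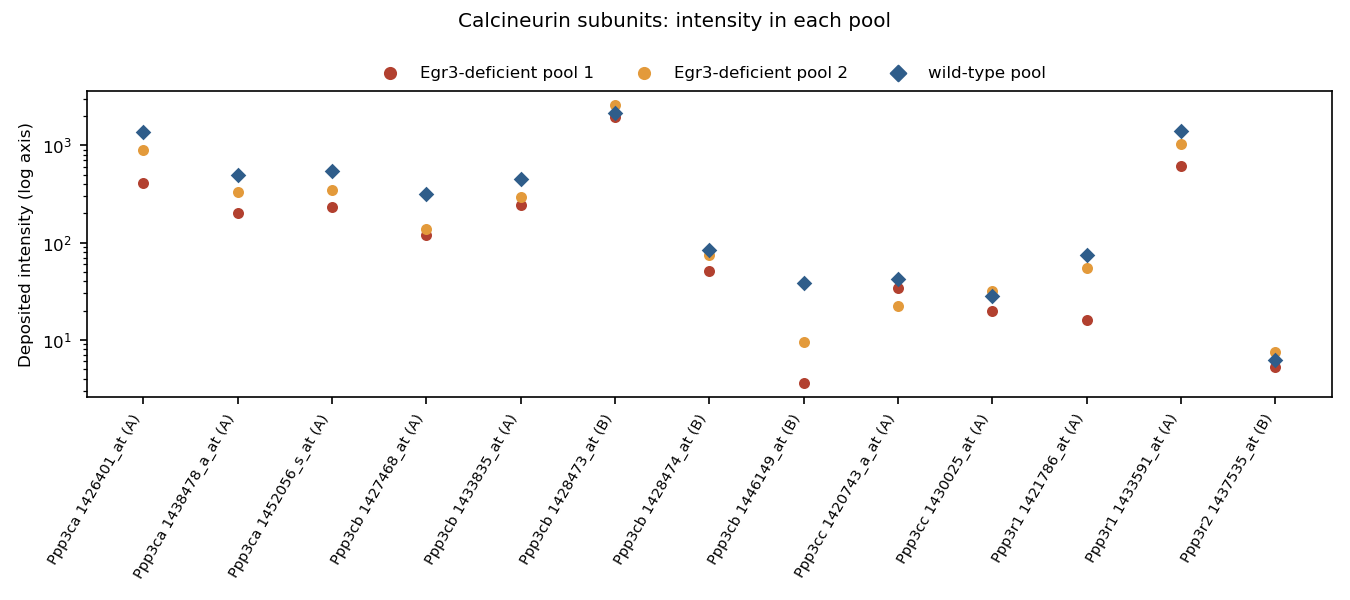
Deposited intensity on a log axis for every calcineurin probe set, with the array type in brackets. Circles are Egr3-deficient pool 1 (red) and pool 2 (orange), and the blue diamond is the wild-type pool. On A the diamond is highest for every Ppp3ca, Ppp3cb and Ppp3r1 probe set, and on B the brightest Ppp3cb probe set has it between the circles.

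PP1 inhibitors lay mostly above wild type on A, where 9 of 13 probe sets were above it in each pool and 3 below, with a median of 0.30, 3 higher at an unadjusted p under 0.05 and none called. Ppp1r11, known as inhibitor 3, read 235 and 259 against 123, a log2 difference of 0.98 (SE 0.31, limma adjusted p = 0.176), and 612 and 495 against 281 at its other probe set, a difference of 0.94 (SE 0.29, adjusted p = 0.173). Wild type was the lowest pool at both. Ppp1r14b, of the inhibitor group activated by protein kinase C, gave 0.78 (SE 0.33, adjusted p = 0.233), and its relative Ppp1r14a gave 0.62 (SE 0.30, adjusted p = 0.274). The inhibitors that protein kinase A activates, Ppp1r1a (inhibitor 1) and Ppp1r1b (DARPP-32), gave 0.65 (SE 0.33, adjusted p = 0.293) and 0.74 (SE 0.34, adjusted p = 0.258). The probe sets below wild type on A were all 3 of Ppp1r2 (inhibitor 2), at -0.76, -0.30 and -0.38. Ppp1r1c, a relative of inhibitor 1 measured on B, stood out: it read 94.7 and 89.2 against 304, a difference of -1.52 (SE 0.47, adjusted p = 0.0817), with the 2 Egr3-deficient pools nearly equal. It missed the threshold, which it passed with a pseudocount of 64 (adjusted p = 0.0452), a filter at the 60th percentile (0.0411) or 1 probe set per gene (0.0368).

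Myosin phosphatase targeting subunits bring PP1 to myosin light chain and other cytoskeletal substrates, and both calls fell among their 12 probe sets on B. Ppp1r16a, a membrane-anchored member of the group, read 523 and 388 in the Egr3-deficient pools against 42.8 in wild type. It rose by a log2 difference of 3.10 (3.28 in pool 1 and 2.93 in pool 2, SE 0.46, limma adjusted p = 4.15e-05). The wild-type reading lay under the intensity of 55.9 that corresponds to the filter, so the probe set entered the test through the pools in which it is high, and both the call and the size of the difference rest on a dim wild-type reading. The other Ppp1r16a probe set read 1460 and 945 against 708, a difference of 0.49 (SE 0.39, adjusted p = 0.638): the same direction at a much smaller size. Ppp1r12c, a myosin-binding subunit, read 529 and 286 against 120 and rose by 1.64 (2.04 in pool 1 and 1.24 in pool 2, SE 0.46, adjusted p = 0.0487). Its probe set on A read 57.2 and 51.0 against 32.6, a difference of 0.63 (SE 0.34, adjusted p = 0.316), also with wild type lowest. That wild-type reading lay under the filter intensity of 36.7 on A, so this probe set too was kept through the pools in which it is high.

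Neither call held under every setting. Scaling on the shared probe sets ended both (Ppp1r16a 2.41, adjusted p = 0.327; Ppp1r12c 0.996, adjusted p = 0.329), as did testing without a filter (adjusted p = 0.455 for each) and eBayes without a trend (0.134 and 0.333). In each of these settings, 0 of all tested probe sets on B were called. The Ppp1r12c call was also lost without normalization (adjusted p = 0.331) and with a pseudocount of 1 (0.0607). The mean difference of each stayed above 0 under these settings. With 1 probe set per gene the Ppp1r16a call was lost, because its other, brighter probe set then stood for the gene. Ppp1r12c was called in that setting (limma adjusted p = 0.00874). Skeletal muscle markers on B lay above wild type in 3 of 3 probe sets, with summed intensities of 276, 415 and 218 in pool 1, pool 2 and wild type, and the liver markers in 2 of 2, with 694, 6760 and 73.0. Their part in these calls was not tested. Both marker sums were highest in pool 2. The liver sum came mostly from 1 Ttr probe set (584, 6739 and 50.9). Of the muscle markers on B, Myh4 (53.4, 180 and 60.5) and Ryr1 (54.4, 74.9 and 20.6) read highest in pool 2. Ckm (168, 160 and 137) read highest in pool 1.

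The other members of the group did not follow. Ppp1r12a, the myosin-binding subunit MYPT1, lay below wild type at 4 of 4 probe sets, from -0.44 to -0.83. The one farthest below in both pools read 263 and 361 against 534, a log2 difference of -0.83 (SE 0.44, limma adjusted p = 0.391). Ppp1r12b, the form known from striated muscle, had probe sets on both sides: 166 and 105 against 67.7 at 1 (0.98, SE 0.53, adjusted p = 0.407), 356 and 327 against 241 at another (0.49, adjusted p = 0.688), and 40.3 and 75.2 against 139 at the one that lay below (-0.95, SE 0.64, adjusted p = 0.554). The probe sets of Ppp1r12b therefore give no common direction. Ppp1r16b, a relative of Ppp1r16a, read 1914 and 1856 against 1391 on B, which normalization reduced to 0.11 (SE 0.36, adjusted p = 0.937).

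**Figure D5:**
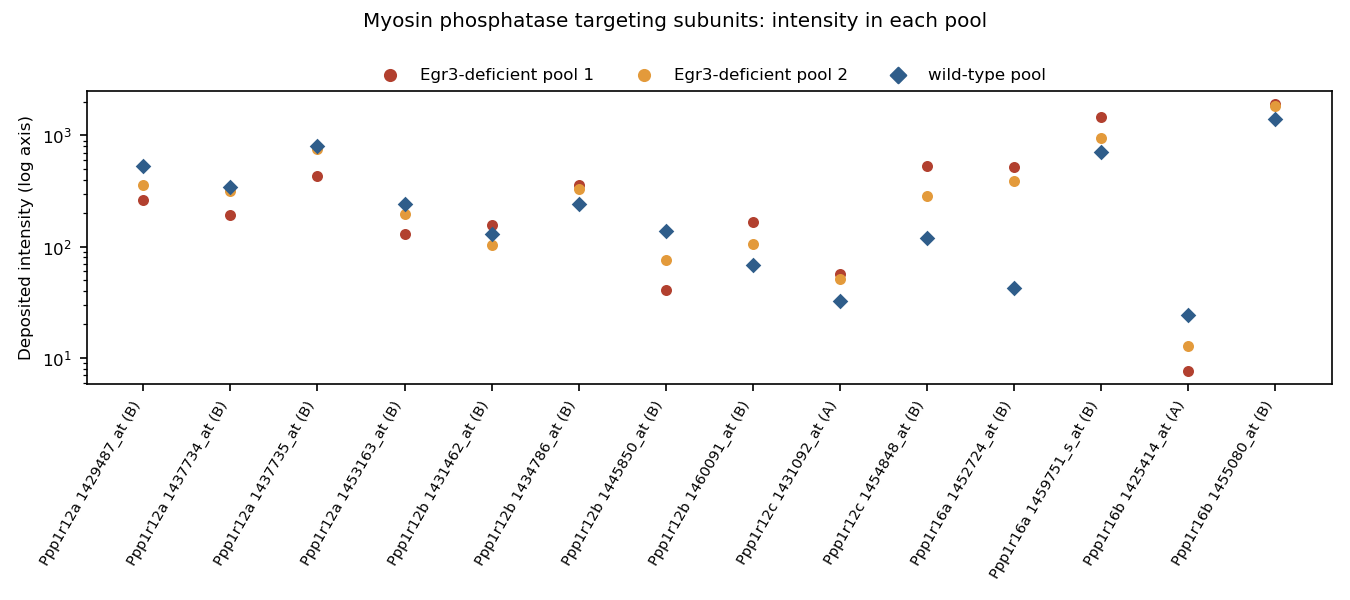
Deposited intensity on a log axis for every probe set of the myosin phosphatase targeting subunits, with the array type in brackets. Circles are Egr3-deficient pool 1 (red) and pool 2 (orange), and the blue diamond is the wild-type pool. The diamond is far under both circles for the first Ppp1r16a probe set (42.8 against 388 and 523) and under them for Ppp1r12c, and it is over both for the 4 Ppp1r12a probe sets.

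Glycogen targeting subunits hold PP1 at glycogen particles. Of their 9 probe sets, 4 were above wild type in each pool and 1 below, and none was called. Ppp1r3f read 183 and 199 against 131 on A, a log2 difference of 0.58 (SE 0.32, limma adjusted p = 0.323). Ppp1r3e had 1 probe set on B that read 206 and 89.2 against 70.4 (0.98, SE 0.53, adjusted p = 0.414). Its other probe set, with 490 and 7.56 against 290, had its pools on opposite sides of wild type by the largest margin of any member. Its difference of -1.50 (SE 0.70, adjusted p = 0.311) is therefore set by pool 2 alone. Ppp1r3a, the muscle form, read 19.6 and 15.2 against 14.9 and was too dim to be tested.

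PP1 subunits of the stress response, Ppp1r15a and Ppp1r15b, return phosphorylated eIF2 alpha to its unphosphorylated form. Their tested probe sets gave -0.04 (SE 0.35, limma adjusted p = 0.960) and 0.09 (SE 0.31, adjusted p = 0.880), with Ppp1r15b reading 276 and 246 against 249. Ppp1r9a encodes neurabin, which holds PP1 at actin in dendritic spines. On B 4 of its 5 probe sets lay below wild type in both pools, among them one that read 526 and 642 against 910 (-0.83, SE 0.41, adjusted p = 0.344). Ppp1r18, the actin-linked subunit on A, gave 0.28 (SE 0.33, adjusted p = 0.625). Ppp1r7, a nuclear regulator of PP1 known as SDS22, read 110 and 150 against 234 and 49.9 and 87.7 against 130 at its 2 probe sets, differences of -0.73 (SE 0.33, adjusted p = 0.263) and -0.71 (SE 0.36, adjusted p = 0.300). Wild type was the highest pool at both.

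The p53 family binding subunits, Ppp1r13b (ASPP1) and Ppp1r13l (iASPP), lay above wild type at 5 of 5 probe sets on B, with a median log2 difference of 0.41 and no call. Ppp1r13b read 2468 and 1575 against 1105 (0.53, SE 0.36, limma adjusted p = 0.561), and the Ppp1r13l probe set with the largest difference read 301 and 365 against 206 (0.69, SE 0.45, adjusted p = 0.525). Shared scaling turned that count to 1 above and 3 below. Among the remaining PP1 subunits, Ppp1r35 read 394 and 336 against 224 (0.68, SE 0.45, adjusted p = 0.533) and Ppp1r26 717 and 570 against 382 (0.63, SE 0.42, adjusted p = 0.543). Ppp1r32 had the highest difference of any member on A at 1.24, with readings of 28.6 and 32.0 against 4.09, all under the filter intensity of 36.7 and so not tested. Ppp1r42 was also dim, with 1.92 and 2.37 against 14.9 at its farthest probe set.

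PP2A scaffold subunits lay above wild type. All 5 probe sets of Ppp2r1a, the main scaffold, were above in both pools, with log2 differences from 0.26 to 0.59, under each scaling and pseudocount tried, and none was called. One read 793 and 705 against 485 (0.59, SE 0.26, limma adjusted p = 0.254) and another 1577 and 1551 against 1070 (0.43, SE 0.22, adjusted p = 0.306). Of the 5 probe sets, 4 are of a kind whose name marks possible hybridisation to other sequences, so they are not independent readings. Ppp2r1b, the second scaffold gene, gave 0.15 (SE 0.34, adjusted p = 0.817).

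The B subunits choose the substrates of PP2A. Of the B class on A, 3 of 3 Ppp2r2a probe sets lay below wild type and 3 of 3 Ppp2r2d probe sets above. The Ppp2r2a probe set farthest below read 80.0 and 63.5 against 144 (-0.79, SE 0.35, limma adjusted p = 0.249), and Ppp2r2d ranged from 0.09 to 0.34. Ppp2r2b, the neuronal beta form, read 188 and 244 against 364 on A (-0.68, SE 0.32, adjusted p = 0.268) and had its pools on either side of wild type on B. The brightest probe set of Ppp2r2c, the neuronal gamma form on B, gave 0.36 (SE 0.34, adjusted p = 0.709).

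In the B' class, Ppp2r5c, the gamma form, had 6 probe sets on A, of which 5 lay below wild type in both pools and 3 had an unadjusted p under 0.05. The one farthest from wild type read 4.82 and 58.8 against 147, a log2 difference of -1.98 (-2.86 in pool 1 and -1.10 in pool 2, SE 0.64, limma adjusted p = 0.178). Others read 197 and 238 against 469 (-1.04, SE 0.31, adjusted p = 0.168) and 26.0 and 26.5 against 75.7 (-1.02, SE 0.33, adjusted p = 0.178). In the last of these, both Egr3-deficient readings lay under the filter intensity of 36.7, so it was kept through the wild-type pool. The remaining 3 gave -0.48, -0.19 and -0.17. On B its only probe set went the other way, with 339 and 248 against 213 (0.46, SE 0.45, adjusted p = 0.719), and turned to -0.17 under shared scaling. Ppp2r5e, the epsilon form on B, had 4 probe sets below wild type, from -0.42 to -0.84, and 1 above (217 and 301 against 193, 0.45, SE 0.45, adjusted p = 0.723). Ppp2r5d, the delta form, gave 0.70 (SE 0.32, adjusted p = 0.262). In the B'' class, 3 of 3 probe sets of the calcium-binding subunit Ppp2r3a lay below wild type on B, among them one that read 176 and 243 against 321 (-0.58, SE 0.45, adjusted p = 0.627), and Ppp2r3c on A read 74.9 and 123 against 178 (-0.69, SE 0.36, adjusted p = 0.305).

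Regulatory subunits of PP4 and PP6 lay mostly below wild type on A, where 9 of 14 probe sets were below in both pools and 2 above, with a median log2 difference of -0.53, 3 lower at an unadjusted p under 0.05 and none called. On B, 5 of 15 lay above and 3 below, with a median of 0.07 and none called. Of these 15 probe sets, 8 belong to the pseudogene Ppp4r1l-ps, described below, which gave 3 of those above and 1 of those below. Ppp4r3b, a PP4 subunit of the SMEK group, read 36.9 and 117 against 220 (-1.40, SE 0.50, limma adjusted p = 0.197), and all 4 of its probe sets lay below wild type. Under median centring, 2 of the 4 passed the test (-1.37, adjusted p = 0.0171, and -1.23, adjusted p = 0.026), as did the Ppp2r5c probe set farthest from wild type (-1.93, adjusted p = 6.38e-05). Median centring moved the median of all probe sets on A to 0.13 and called 227 of them higher and 597 lower. Ppp4r2, the core PP4 regulatory subunit, gave -0.76 (SE 0.38, adjusted p = 0.292) and -0.53 (SE 0.33, adjusted p = 0.378), opposite in sign to Ppp4c. Ppp6r3, a PP6 subunit, had probe sets on both sides: 79.5 and 109 against 175 (-0.72, SE 0.33, adjusted p = 0.266), 17.1 and 49.7 against 79.9 (-0.94, SE 0.42, adjusted p = 0.258), and 34.8 and 53.7 against 25.4 (0.62, SE 0.34, adjusted p = 0.322). Ppp6r1 read 641 and 294 against 244 on B (0.78, SE 0.46, adjusted p = 0.463).

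On B the pseudogene Ppp4r1l-ps had 8 probe sets with no common direction. One read 50.0 and 56.6 against 184 (-1.41, SE 0.61, limma adjusted p = 0.257), the 2 Egr3-deficient pools agreeing closely, while another read 306 and 266 against 224 (0.37, SE 0.45, adjusted p = 0.791). Another, too dim to be tested, read 31.4 and 32.2 against 7.35. A pseudogene probe set can share sequence with its parent gene, so these readings are uncertain. The remaining 4 genes had no role assigned (Ppp1r2-ps7, Ppp1r2-ps9, Ppp1r14bl and Ppp2r2cos), with differences between -0.13 and 0.28.

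Partners of these phosphatases outside the Ppp names were measured beside them, and none was called by limma. Of PP1 and PP2A partners, 11 of 43 probe sets on A were above wild type in each pool (all probe sets 42.7%) and 20 below (35.5%). Of the 34 tested, 2 were higher (all tested 7.93%) and 8 lower (12.7%) at an unadjusted limma p under 0.05. On B, 7 of 19 lay above (all probe sets 37.8%) and 9 below (35%). Of the 11 tested there, 2 were higher (all tested 7.4%) and 3 lower (6.83%). Mob4, a component of the striatin complexes of PP2A, read 117 and 202 against 519 on A (-1.64, SE 0.37, limma adjusted p = 0.161), and its probe set on B gave -1.06 (SE 0.41, adjusted p = 0.186). Arpp19, a PP2A inhibitor that acts in mitosis, read 71.9 and 124 against 292 at 1 probe set (-1.42, SE 0.37, adjusted p = 0.161), while its others gave -0.24 and 0.13. Ier5, a PP2A-binding immediate early protein, read 128 and 104 against 51.9 (1.06, SE 0.34, adjusted p = 0.177). Strn4, a striatin scaffold, read 399 and 428 against 218 (0.91, SE 0.30, adjusted p = 0.178). The other striatins, added after their values were seen, lay on the side of Mob4: Strn gave -1.20 and -0.47 on A and -0.93 on B, and Strn3 gave -1.24 and -0.84 on A and -1.08 on B, each below wild type in both pools and none called.

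Of calcineurin partners and NFAT factors, 12 of 25 probe sets on A were above wild type in each pool (all probe sets 42.7%) and 6 below (35.5%). Only 8 of the 25 were bright enough to be tested, and Nfatc3 and Nfatc4 were too dim. Of these 8, 1 was higher and 2 lower at an unadjusted limma p under 0.05. On B the counts were 4 and 3 of 13 (all probe sets 37.8% and 35%). Of the 9 tested there, 1 was higher and 0 lower. Rcan2, a calcineurin regulator, read 801 and 1139 against 1718 (-0.96, SE 0.29, limma adjusted p = 0.172), the order of pools seen for Ppp3ca. Its other probe set, with 84.9 and 233 against 223 (-0.52, SE 0.50, adjusted p = 0.562), did not have that order. Nfat5, an NFAT relative that calcineurin does not regulate, read 34.4 and 86.6 against 149 (-1.09, SE 0.43, adjusted p = 0.219). Myoz1, a calcineurin-binding protein of muscle, read 89.2 and 104 against 36.9 (1.19, SE 0.33, adjusted p = 0.161), beside the skeletal muscle marker sums of 6580, 8010 and 1210. Nfatc2, a calcineurin target, gave 1.01 at 1 probe set on B (SE 0.47, adjusted p = 0.311) and -0.21 at another (SE 0.45, adjusted p = 0.906).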

How the data were processed

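The deposited values are the authors' linear intensities, 1 for each probe set on an array. On each of the 6 arrays their trimmed mean, without the lowest and highest 2%, lay between 150.019 and 150.063, so the authors had scaled them. The sources used here do not name the program that summarised the probes. Gene symbols came from the platform annotation, and all 172 member probe sets matched the RefSeq gene table without a change of symbol. The members and gene lists were chosen with earlier results of these data known.

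Each array type was analysed alone. The 64 control probe sets on each were left out. The deposited intensities were taken as log2(intensity + 16) and quantile normalized over the 3 arrays. Probe sets were kept for testing where their mean was at or above the 40th percentile, an intensity of 36.7 on A and 55.9 on B, and the direction counts used all members. That mean was over all 3 arrays, so a probe set could be kept through the pools in which it is high. limma 3.58.1 in R 4.3.3 (lmFit, eBayes with trend) tested all kept probe sets, 13576 on A and 13507 on B, with Benjamini-Hochberg adjustment and a threshold of 0.05. The test was checked on simulated data that gave all 3 arrays the spread seen between the 2 Egr3-deficient pools. That check therefore cannot show whether a wild-type pool varies like them. With 1 residual degree of freedom, the spread comes from the 2 Egr3-deficient pools and from a prior worth 6.54 such degrees on A and 52.3 on B, so SEs on B hardly measure the pools' own spread. The wild-type pool has no replicate and was assumed to vary like the others. Adjusted p values rest on that prior and on the spread between these pools, which does not measure variation between wild-type pools. The number of arrays limits the precision, and probe sets were not compared with each other in level.

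Members named with values were every catalytic gene (brightest probe set), every call, the 5 higher and 5 lower kept probe sets per array type with the largest smaller-of-2 ratio, the 2 of each role list with the largest such ratio, and genes with tested probe sets on opposite sides. Of the partner lists, the 2 genes with the largest such ratio in each direction among tested probe sets were named. Ier5l, too dim to be tested, had a larger ratio above wild type than Ier5 and Strn4 (70.2 and 58.5 against 13.2 on B). Not all PPM phosphatases named followed this rule. Other members named were chosen after their values were seen. Alternatives were no normalization, median centring, scaling on the 100 probe sets shared by both array types, pseudocounts of 1 and 64, the filter dropped or set at the 60th percentile, eBayes made robust or run without its trend, 1 probe set per gene (the one with the highest mean), and each Egr3-deficient replicate left out.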

Additional observations from a re-analysis of the deposited data

How the results depend on the processing

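Results on A kept their side of the threshold under the alternatives run, except that median centring called 3 member probe sets lower. That setting called 597 of all tested probe sets on A lower. Taking 1 probe set per gene left 23 of 54 genes above wild type in each pool on A and 21 below. Over all 100 probe sets the counts were 37 above and 44 below, so the side with more members changed with the counting. On B the 2 calls higher became 1 without normalization, with a pseudocount of 1 and with 1 probe set per gene, and 0 with shared scaling, no filter or no trend. The remaining call was Ppp1r12c with 1 probe set per gene and Ppp1r16a otherwise. Over all tested probe sets on B, calls higher went from 138 to 2 without normalization, 115 with a pseudocount of 1 and 148 with 1 probe set per gene. They numbered 0 with shared scaling, no filter or no trend. Calls lower on B became 1 with a pseudocount of 64 or a filter at the 60th percentile and 2 with 1 probe set per gene (Ppp1r1c and Ppp1r3e). In the same order, calls lower over all tested probe sets there went from 82 to 181, 195 and 116. Shared scaling on B gave 8 above, 52 below and a median of -0.61, and 1 probe set per gene gave 16 above and 8 below of 38 and a median of 0.20. The cause of these changes was not tested.

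Leaving out 1 Egr3-deficient replicate leaves 1 array against 1, which allows no test. The remaining pool lay above wild type for 34 to 41 member probe sets on B and below for 31 to 38. No paired analysis was possible because the labels number no wild-type pool beyond 1 and state no pairing. Signs turned for some named probe sets. Without normalization Ppp1cc on A gave 0.085, and on B Ppp1r12b gave -0.035, Ppp3cb 0.064 and Ppp4r1l-ps -0.11. Under median centring Ppp1cc gave 0.21, Ppp3cb on B 0.23 and Ppp6r3 on B 0.01. Under shared scaling Ppp1cc gave 0.043 on A, and on B Ppp1r12b gave -0.62 and -0.11, Ppp2r5c -0.17, Ppp2r5e -0.21 and Ppp4r1l-ps -0.53, -0.25 and -0.69. Low signal limits what could be tested: 20 of 100 member probe sets on A and 18 of 72 on B fell under the filter. By its setting, 40% of all probe sets fell under it, so members did so less often.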

Other observations

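Metal-dependent phosphatases of the PPM family and other serine/threonine phosphatases outside the Ppp names were measured on the same arrays, and limma called none. On A, 6 of 15 probe sets were above wild type in each pool (all probe sets 42.7%) and 7 below (35.5%). Of the 13 tested, 1 was higher and 1 lower at an unadjusted limma p under 0.05. On B, 6 of 22 lay above (all probe sets 37.8%) and 12 below (35%). Of the 20 tested there, 1 was higher and 2 lower. Ppm1k, a mitochondrial phosphatase of branched-chain amino acid breakdown, read 242 and 362 in pools 1 and 2 against 645 in wild type at 1 probe set on B (log2 difference -1.19, SE 0.44, limma adjusted p = 0.165) and gave -1.44 at its other probe set (adjusted p = 0.182). Wild type was the highest pool at both. Ppm1f read 1564 and 881 against 556 on B (0.84, SE 0.40, adjusted p = 0.322) and gave -0.31 at its other probe set. Ppm1d, a phosphatase of the DNA damage response, gave 0.74 on B (SE 0.45, adjusted p = 0.486).

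Ppm1a had a probe set present on both array types, so the same probes read the same pools in separate labelled extracts. It read 548 and 654 against 594 on A (-0.02, adjusted p = 0.976) and 2741 and 2256 against 1384 on B (0.52, SE 0.34, adjusted p = 0.540). A different Ppm1a probe set on A gave -1.32 (SE 0.32, adjusted p = 0.161).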
